A study of Mus musculus with 36 samples.

Results

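The bulk melanoma comparison set 6 tumours of macroH2A double knockout mice (dKO) against 6 tumours of wild-type mice (WT), which together were 12 of the 36 RNA-seq libraries of the series. The tumours were taken by the genotype and tissue in the sample labels, and all 12 were kept. The dKO mice are constitutively deficient for *H2afy* and *H2afy2*, the genes of macroH2A1 and macroH2A2 (alleles Macroh2a1 tm1Peh and Macroh2a2 tm1.1Peh), in every cell of the body. Both genotypes carried Braf CA/CA and Tyr-CreERT2, received topical 4-hydroxytamoxifen on the dorsal skin, had a mixed background of 129S, B6 and FVB, and were sampled at 50 days post induction. Their age at induction was not given in the sources used here. Recombination of the conditional alleles depends on the tyrosinase promoter and so on the melanocyte lineage, while each library holds RNA of the whole tumour with its stroma, immune cells and skin. The dKO tumours came from 1 female and 5 male mice and the WT tumours from 4 female and 2 male mice, and each of the 3 library batches held 2 dKO and 2 WT tumours. The other libraries of the series are sorted cancer-associated fibroblasts (CAFs), sorted CD8+ T cells and immortalized dermal fibroblasts (iDFs), and they are used here only to follow genes named in the tumours.

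MacroH2A proteins are variants of the core histone H2A that carry a large globular macrodomain on their C-terminal side. They are incorporated into nucleosomes in place of H2A and are best known from repressed chromatin, such as the inactive X chromosome. Activated Braf in melanocytes drives the MAPK pathway, which relays growth signals to the nucleus, and strains built on it are widely used mouse models of cutaneous melanoma.

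The sum of estimated counts in genes was 24624892 to 85432438 per dKO tumour (median 36191204), against 22245177 to 80382315 per WT tumour (median 30167018), and the 4 libraries of batch 2 were the deepest, with at least 75105188 each. Defining markers of the labelled tissue were present in every tumour. *Sox10*, a transcription factor of the melanocyte lineage, was at 118 to 335 TPM (transcript abundance scaled by length and by the library total) in dKO tumours and 98.0 to 338 TPM in WT tumours. *Col1a1*, a collagen of fibroblasts, was at 799 to 3361 TPM in dKO tumours and 496 to 1394 TPM in WT tumours. *Krt5*, a keratin of basal epidermis, was at 645 to 1296 TPM in dKO tumours and 953 to 1725 TPM in WT tumours, and *Acta1*, the actin of skeletal muscle, was at 174 to 603 TPM in dKO tumours and 265 to 1809 TPM in WT tumours, so that every library held RNA of skin and muscle beside that of the tumour.

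Few genes separated the genotypes across the whole transcriptome. Of the 18097 genes tested with edgeR, with batch and sex in the model, 3 were called higher in dKO tumours (0.0166%) and 5 were called lower (0.0276%), with calls made at an adjusted p under 0.05 together with a log2 change of more than 0.75 in size. An unadjusted p under 0.05 was reached by 642 higher genes (3.55%) and 718 lower genes (3.97%), together 7.52% of those tested. In 56 genes (0.309%) all 6 dKO tumours lay above all 6 WT tumours, and in 65 genes (0.359%) they lay below them, which made 121 genes without overlap (0.669%). Among these 121 genes, 44 of the 56 higher and 55 of the 65 lower were protein-coding.

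After scaling of the libraries, the fold changes centred close to 0. The median log2 fold change over all genes tested was 0.019, with 53.2% of genes above 0 and 46.8% below it, and the median standard error was 0.209. The TMM factors used for scaling assume that most genes do not differ. A median near 0 is therefore largely set by the scaling and does not measure a shift shared by most genes. For 12065 genes (66.67%) the whole 95% confidence interval lay within a log2 change of 1 in either direction, so that a larger change of these genes was outside the interval. The remainder could not be bounded this closely with 6 tumours per group. A fitted change above 1 in either direction was found for 1078 genes, of which 494 also had an unadjusted p under 0.05. DESeq2, with the same model, called 78 genes higher (0.431%) and 113 lower (0.624%), and the 8 genes called by edgeR were among them. The p-values measure the spread between the sampled mice, 1 library each.

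**Figure D1:**
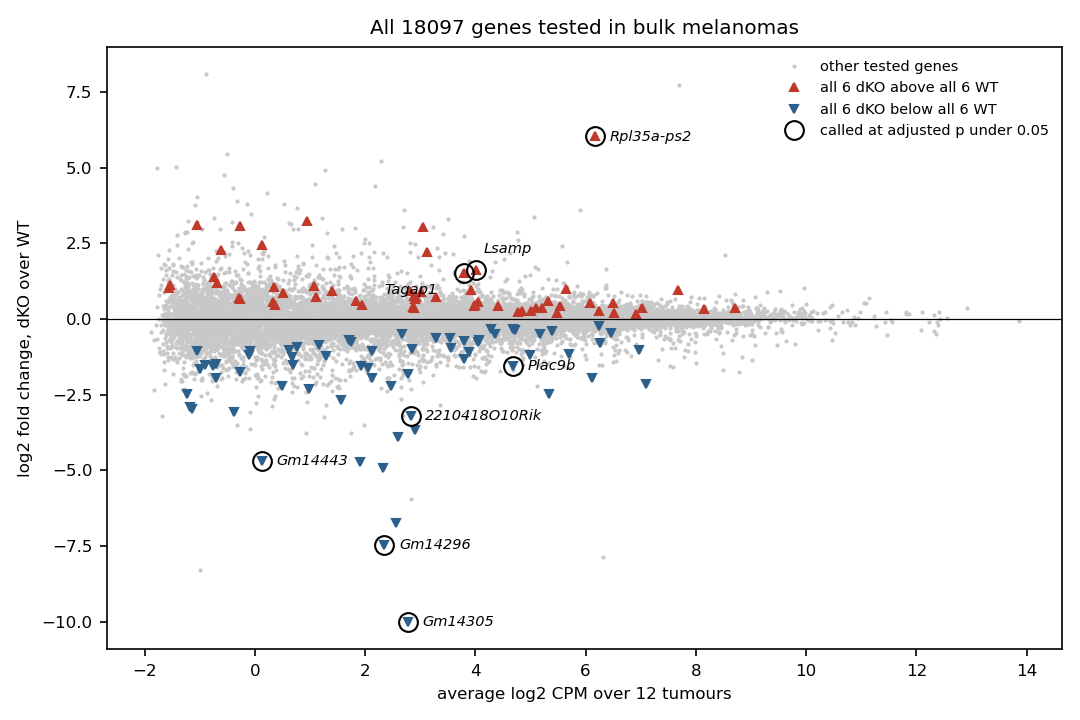
Average level (log2 CPM, x axis) and log2 fold change of dKO over WT tumours (y axis) of the 18097 genes tested, each dot a gene. Triangles mark genes without overlap between the groups, and circles mark the 3 genes called higher and 5 called lower with edgeR. The remaining genes lie around a median of 0.019.

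Batch, sex and genotype each took a share of the main axes of variation among the 12 tumours. The first principal component held 23.9% of the variance, of which batch accounted for 28.6%, sex for 19.4% and genotype for 17.7%. The second held 16.9%, and here batch accounted for 48.1%, sex for 19.1% and genotype for 30.8%. Genotype had its largest share, 34.8%, in the third component, which held 14.4% of the variance. Of the 100 genes at the positive end of that component 14 were in the list of fast skeletal muscle genes, and of the 100 at its negative end 11 were in the list of melanocyte pigment genes, so that muscle and pigment genes lay at its opposite ends. Since 5 of the 6 dKO mice but 2 of the 6 WT mice were male, sex and genotype were partly confounded and could be separated only through the model.

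The targeted genes were lower in dKO tumours without being called. *H2afy* (chr13:56073619-56136361) was at 61.2 to 82.4 CPM (counts scaled to the normalized library total, median 75.3) in dKO tumours and at 90.5 to 122 CPM (median 97.4) in WT tumours. Its log2 fold change was -0.46 ± 0.12 (SE; adjusted p = 0.37, edgeR), and the groups did not overlap. *H2afy2* (chr10:61738665-61784147) was at 4.69 to 8.41 CPM (median 5.45) in dKO tumours and at 7.97 to 13.2 CPM (median 10.9) in WT tumours, a log2 fold change of -0.98 ± 0.19 (adjusted p = 0.17, edgeR), and 1 dKO tumour reached into the WT range. A count over the whole gene includes exons that the targeted alleles may retain, so it checks the labels by its direction only. Around *H2afy2*, 4 of the 29 genes tested within 1 Mb on either side had an unadjusted p under 0.05 (13.8%), and within 10 Mb 10 of 121 had (8.26%). Around *H2afy* the counts were 0 of 29 within 1 Mb and 12 of 170 within 10 Mb (7.06%). None of the other genes in these windows was called or free of overlap between the groups, and the share within 10 Mb was near the 7.52% of all genes.

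The largest falls among called genes lay in a single stretch of chromosome 2. Of the 5 genes called lower, 4 lie in it and were nearly absent from dKO tumours. *Gm14305* (chr2:176708328-176721813, protein-coding) was listed at 0 in 5 of the 6 dKO tumours and at 0.0803 CPM in the other, against 7.27 to 18.8 CPM (median 15.1) in WT tumours. These were 2 counts in all dKO tumours together and 3901 in all WT tumours, or 0.0473% of the WT level (95% exact counting interval 0.00573 to 0.171%, which covers counting error only; adjusted p = 0.00079, edgeR). *Gm14296* (chr2:176892509-176927809) was at 0 to 0.203 CPM (median 0.0463) in dKO tumours, against 7.82 to 12.9 CPM (median 9.44) in WT tumours, and fell by 7.46 on the log2 scale (SE 0.51, adjusted p = 0.00078, edgeR). The other pair had some signal in every dKO tumour. *2210418O10Rik* (chr2:176226569-176240328) was at 0.724 to 1.76 CPM (median 1.11) in dKO tumours, against 8.65 to 16.3 CPM (median 13.6) in WT tumours, and fell by 3.21 on the log2 scale (SE 0.25, adjusted p = 0.0010, edgeR). *Gm14443* (chr2:175166255-175175871) was at 0.0290 to 0.161 CPM (median 0.0512) in dKO tumours, against 1.22 to 2.70 CPM (median 2.04) in WT tumours, and fell by 4.68 on the log2 scale (SE 0.43, adjusted p = 0.0032, edgeR). No dKO tumour reached the WT range in any of these genes, and each of the 4 was called again with any 1 of the 12 tumours left out.

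The stretch runs from 175166255 to 177127709 on chromosome 2, or 1.96 Mb of GRCm38, and was found by joining genes without overlap that lie at most 1 Mb apart. Its neighbours *Zfp965*, *Zfp966* and *Zfp968* are annotated as zinc finger protein genes, a family of DNA-binding proteins whose KRAB members are known as repressors of transposable elements. Of the 21 genes tested in it, 18 were below 0 and 15 had an unadjusted p under 0.05. The 11 genes without overlap that defined it were lower in dKO tumours without exception, and since the stretch was chosen by these values its counts are a description. *Gm6710* was at 2.05 to 4.79 CPM (median 2.24) in dKO tumours, against 7.51 to 13.9 CPM (median 11.0) in WT tumours (log2 fold change -1.81 ± 0.25 SE, adjusted p = 0.060, edgeR). *Gm4724* was listed at 0 in 5 dKO tumours and at 1.94 CPM in the other, against 7.04 to 20.3 CPM in WT tumours (adjusted p = 0.095, edgeR). The tumours of the genotypes did not overlap in these genes either, although neither passed the threshold. Not every gene of the stretch was lower, since *Gm14391* had a log2 fold change of 0.32 ± 0.79, *Gm14421* of 0.85 ± 0.66 and *Gm14401* of 4.32 ± 1.33 (SE).

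Many genes of the stretch were also lower in both sorted cell types of the series, which come from other libraries. In CAFs 15 genes of the stretch were tested with edgeR and 12 were called lower in dKO, where 4.03% of the 15786 genes tested were. In CD8+ T cells 12 were tested and 6 were called lower, where 0.234% of 14944 genes were (and 0.261% higher). With 1 CD8+ library left out, *Gm14305* was called in 0 of 8 such fits (adjusted p of 0.054 to 0.12, edgeR). *2210418O10Rik* and *Gm4724* were called in 1 of 8 each, and all of these genes kept their direction. The other genes of the stretch called in CD8+ T cells were not followed in these fits. *Gm14305* was at 0 to 0.170 CPM in dKO CAFs and 8.97 to 11.8 CPM in WT CAFs, and at 0 to 0.142 CPM in dKO CD8+ T cells and 3.22 to 13.3 CPM in WT CD8+ T cells. In the immortalized fibroblasts the same gene was at 13.5 to 15.5 CPM in dKO iDFs and 15.2 to 18.4 CPM in WT iDFs. *2210418O10Rik* followed, with 0.128 to 0.734 CPM in dKO CAFs and 3.52 to 6.36 CPM in WT CAFs, but 9.61 to 12.6 CPM in dKO iDFs and 9.02 to 11.1 CPM in WT iDFs. The near absence in dKO was thus measured in tumours, CAFs and CD8+ T cells and not in the cultured line, and whether it belongs to the loss of macroH2A or to the chromosome 2 that the dKO mice carry cannot be told apart in this design.

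**Figure D2:**
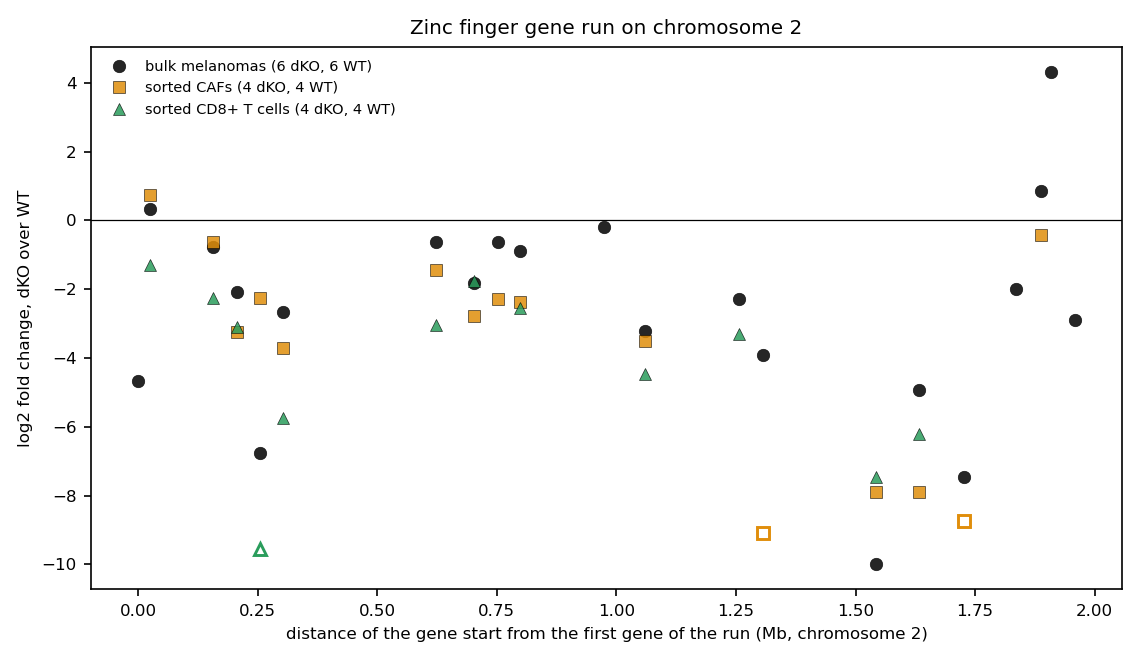
Log2 fold change of dKO over WT (y axis) of the genes tested in the 1.96 Mb stretch of chromosome 2, against the distance of each gene from the first gene of the stretch in Mb (x axis), for tumours, CAFs and CD8+ T cells. Most genes lie far below 0 in all 3. White symbols mark genes at 0 in every dKO library of that cell type, whose fitted change depends on the prior count and is no bound.

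Reads of these genes are hard to place. Of the 75-base stretches of the transcripts of *Gm14305*, as long as the reads, 80.1% also occur in transcripts of 37 other genes, and of those of *2210418O10Rik* 100% do. The share was 53.2% for *Gm14296* and 3.65% for *Gm14443*. *Gm14305* and *Gm14434*, both in the stretch, differ by 7 of 1497 aligned bases (99.53% identity). They are shown because so few bases decide to which gene a read is assigned, here over 75 bases of Gencode transcripts on GRCm38 (bases 1089 to 1163 of Gm14305-202 and 940 to 1014 of Gm14434-203), with the differing bases in capitals.
Gm14305: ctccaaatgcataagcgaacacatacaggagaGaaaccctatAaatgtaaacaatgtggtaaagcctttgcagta
Gm14434: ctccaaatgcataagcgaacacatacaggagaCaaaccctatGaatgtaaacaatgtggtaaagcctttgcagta
*Gm14434* (chr2:176473278-176486783) was at 0 to 2.32 CPM (median 1.43) in dKO tumours and at 3.70 to 18.99 CPM (median 11.1) in WT tumours, again without overlap (log2 fold change -3.91 ± 0.95 SE, adjusted p = 0.36, edgeR). Summed over the 37 measured genes that share a stretch with *Gm14305* or are that gene, the level was 89.2 to 268 CPM (median 140) in dKO tumours and 199.7 to 429 CPM (median 291) in WT tumours, with a ratio of geometric means, dKO over WT, of 0.499 and with overlap between the groups. The values of single genes in it are therefore uncertain, and those of *Gm14443* rest mostly on sequence of its own.

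Among the genes called higher, the one with the largest fold was a processed pseudogene of a ribosomal protein. *Rpl35a-ps2* (chr1:181241988-181242320) was at 82.5 to 178 CPM (median 146) in dKO tumours, against 0.847 to 14.7 CPM (median 2.38) in WT tumours, and rose by a log2 fold change of 6.03 (SE 0.60, adjusted p = 0.0061, edgeR). Its parent gene *Rpl35a* (chr16:33056453-33060189), a protein of the large ribosomal subunit, was at 32.2 to 116 CPM (median 39.4) in dKO tumours, against 143 to 284 CPM (median 216) in WT tumours (log2 fold change -2.16 ± 0.39 SE, adjusted p = 0.15, edgeR). Neither gene overlapped between the groups, and the differences ran in opposite directions. The dKO tumour with the least *Rpl35a-ps2*, dKO 6, had the most *Rpl35a* of its group (116 CPM), and the WT tumour with the most *Rpl35a-ps2*, WT 6, had the least *Rpl35a* of its group (143 CPM).

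The gene and its pseudogene differ at 1 of the 333 bases of the pseudogene (99.7% identity), and every 75-base stretch of *Rpl35a-ps2* (100%) also occurs in another gene. The pair is shown over 75 bases around that single difference, in capitals (bases 209 to 283 of Rpl35a-201 and 119 to 193 of Rpl35a-ps2-201, Gencode, GRCm38).
Rpl35a: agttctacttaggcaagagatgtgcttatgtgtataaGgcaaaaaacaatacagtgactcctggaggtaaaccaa
Rpl35a-ps2: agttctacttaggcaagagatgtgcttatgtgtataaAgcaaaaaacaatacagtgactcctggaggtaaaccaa
Summed over the 12 measured genes of this family, the level was 167 to 235 CPM (median 192) in dKO tumours and 159 to 288 CPM (median 218) in WT tumours, with full overlap, so that the sum hardly differed while its division between gene and pseudogene did. CAFs also differed in this division, though the parent gene kept the higher level there, with *Rpl35a-ps2* at 44.0 to 55.1 CPM in dKO and 0.352 to 0.738 CPM in WT (log2 fold change 6.61, adjusted p = 4.5e-07, edgeR) and *Rpl35a* at 52.1 to 70.7 CPM in dKO and 115 to 129 CPM in WT (log2 fold change -1.004, adjusted p = 0.00045, edgeR). In CD8+ T cells *Rpl35a-ps2* was at 1.61 to 26.1 CPM (median 13.7) in dKO and 2.08 to 3.64 CPM (median 3.01) in WT (log2 fold change 2.23 ± 0.82 SE, adjusted p = 0.38, edgeR), with overlap. There *Rpl35a* was at 85.02 to 108 CPM in dKO and 76.9 to 128 CPM in WT. *Gm10243*, another gene of the family, holds 100% of the 75-base stretches of *Rpl35a-ps2*, so the base shown is not particular to that pseudogene. The pseudogene locus, another gene of the family and an allele of *Rpl35a* with that base cannot be told apart as sources of these counts. The call of *Rpl35a-ps2* was lost without WT 3, without WT 4 and without dKO 5, with adjusted p up to 0.10 (edgeR) and log2 fold changes of 5.59 to 6.47 over all 12 omissions.

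*Tagap1* (chr17:6955011-6961156), named after the T cell activation GTPase activating protein, was higher in dKO tumours. It was at 16.6 to 23.6 CPM (median 20.3) in dKO tumours, against 6.15 to 8.37 CPM (median 8.02) in WT tumours, and rose by a log2 fold change of 1.51 (SE 0.16, adjusted p = 0.0095, edgeR). Even the lowest dKO tumour lay well above the highest WT tumour. The call was lost without WT 4 and without dKO 5. In CD8+ T cells the same gene ran the other way, at 8.54 to 15.1 CPM in dKO and 169 to 194 CPM in WT, and fell by 4.05 on the log2 scale (adjusted p = 9.6e-05, edgeR). In CAFs it was at 8.29 to 9.33 CPM in dKO and 5.34 to 7.06 CPM in WT (log2 fold change 0.46, adjusted p = 0.051, edgeR). In iDFs it was at 12.4 to 14.1 CPM in dKO and 17.1 to 19.03 CPM in WT. The direction thus differed between these experiments, which were fitted separately, so the difference between them was not tested.

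*Tagap*, the related gene with which *Tagap1* shares sequence (57.1% of the 75-base stretches of *Tagap1* occur in another gene), was at 3.07 to 7.42 CPM (median 4.84) in dKO tumours and 5.67 to 8.33 CPM (median 7.62) in WT tumours (log2 fold change -0.81 ± 0.24 SE, adjusted p = 0.46, edgeR). In CD8+ T cells *Tagap* was at 342 to 417 CPM in dKO and 265 to 303 CPM in WT, without overlap. In CAFs it was at 0.449 to 0.723 CPM in dKO and 1.83 to 3.45 CPM in WT (log2 fold change -2.40, adjusted p = 0.0027, edgeR). Its fitted change was thus opposite to that of *Tagap1* in tumours, CAFs and CD8+ T cells. How reads were divided between them was not tested. The sum over the 3 genes with shared stretches was 42.5 to 51.0 CPM in dKO tumours and 30.6 to 42.3 CPM in WT tumours. *Tagap1* lies at the end of a run of 5 genes without overlap on chromosome 17 (5798657 to 6961156), of which *3300005D01Rik* and *Tagap1* were higher and *Tmem181a*, *Dynlt1b* and *Tmem181b-ps* lower. *Dynlt1b*, a dynein light chain gene chosen after its values were seen, was at 13.2 to 65.5 CPM (median 37.3) in dKO tumours and at 82.1 to 119 CPM (median 102) in WT tumours (log2 fold change -1.94 ± 0.44 SE, adjusted p = 0.33, edgeR). It was called lower in CAFs (log2 fold change -3.01, adjusted p = 7.4e-07, edgeR) and in CD8+ T cells (log2 fold change -3.25, adjusted p = 0.0089, edgeR). Of its 75-base stretches 82.6% also occur in other genes, so its values are uncertain too.

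*Lsamp* (chr16:39984361-42181679), a cell adhesion molecule of the immunoglobulin family, first described in the limbic system, was at 18.2 to 29.5 CPM (median 22.6) in dKO tumours, against 5.75 to 14.4 CPM (median 8.31) in WT tumours. It rose by a log2 fold change of 1.62 (SE 0.20, adjusted p = 0.030, edgeR), and the groups did not overlap. None of its 75-base stretches occurs in another gene (0%), which set it apart from the other called genes. It was also called higher in CAFs (as were 1.45% of genes there), at 33.1 to 115 CPM in dKO and 8.56 to 13.8 CPM in WT (log2 fold change 2.40, adjusted p = 0.0079, edgeR), and was listed at 0 in all iDF libraries. In the tumours the call held in 5 of the 12 fits that left out 1 tumour and was lost without WT 1, WT 3, WT 4, dKO 1, dKO 2, dKO 3 or dKO 5, while its log2 fold change stayed between 1.49 and 1.72. In bulk tumours a higher level per cell and more cells that express the gene cannot be told apart.

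*Plac9b* (chr14:26167405-26182480), named placenta specific 9, was at 8.15 to 21.1 CPM (median 17.5) in dKO tumours, against 23.9 to 49.2 CPM (median 37.1) in WT tumours. It fell by 1.55 on the log2 scale (SE 0.20, adjusted p = 0.038, edgeR) without overlap, but the call held in only 2 of the 12 fits that left out 1 tumour, those without WT 2 and without dKO 1. Its copy *Plac9a* has the same 1040 aligned bases and was at 4.58 to 18.2 CPM (median 10.0) in dKO tumours and at 2.65 to 37.6 CPM (median 29.8) in WT tumours (log2 fold change -1.27 ± 0.42 SE, adjusted p = 0.52, edgeR). Together with the third gene that shares their sequence, the sum was 18.0 to 45.8 CPM (median 27.0) in dKO tumours and 53.7 to 95.6 CPM (median 55.8) in WT tumours, still without overlap, and the ratio of geometric means, dKO over WT, was 0.435. In CAFs *Plac9b* was at 12.3 to 23.6 CPM in dKO and 12.1 to 19.3 CPM in WT, with overlap.

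**Figure D3:**
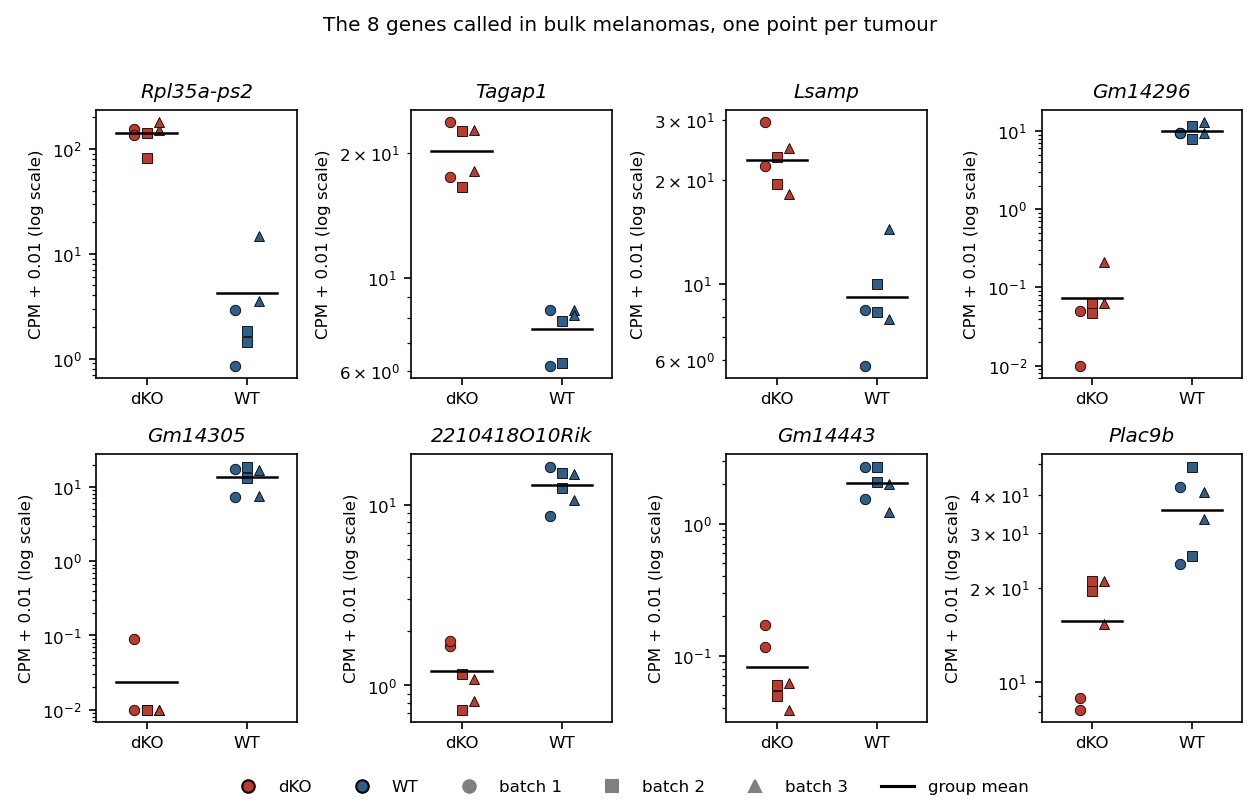
Level of the 8 called genes in each tumour (CPM + 0.01, log axis), dKO tumours left of WT tumours in each panel, with each point a tumour, its shape the batch and the line the group mean. In every panel the 6 dKO tumours lie on one side of the 6 WT tumours.

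Below the threshold, the protein-coding genes with the smallest p among those without overlap included genes with clear levels in every tumour. *Adamts5*, a protease of the extracellular matrix known as an aggrecanase, was at 202 to 334 CPM (median 238) in dKO tumours and at 110 to 171 CPM (median 154) in WT tumours (log2 fold change 0.96 ± 0.17 SE, adjusted p = 0.13, edgeR). *Pvr*, the cell surface protein CD155 that is a ligand of the receptors TIGIT and CD226, was at 50.8 to 102 CPM (median 58.1) in dKO tumours and at 29.3 to 42.2 CPM (median 34.4) in WT tumours (log2 fold change 0.98 ± 0.20 SE, adjusted p = 0.20, edgeR). For both genes CAFs gave no such difference, with log2 fold changes of -0.04 ± 0.20 for *Adamts5* and 0.13 ± 0.16 for *Pvr* (SE).

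*Tctex1d2*, a dynein light chain gene, was at 8.71 to 11.1 CPM in dKO tumours and at 5.04 to 6.52 CPM in WT tumours (log2 fold change 0.88 ± 0.15 SE, adjusted p = 0.11, edgeR). It lies in a run of 3 genes without overlap on chromosome 16 (32419702 to 33060189) with *Rubcn*, which was also higher, and *Rpl35a*, which was lower. *Zfpm2*, a cofactor of GATA transcription factors, was at 6.63 to 11.1 CPM in dKO tumours and at 4.99 to 6.50 CPM in WT tumours. *Phf11b* was at 1.95 to 3.25 CPM in dKO tumours and at 0.936 to 1.77 CPM in WT tumours. The log2 fold changes were 0.74 for *Zfpm2*, 1.08 for *Phf11b* and 0.43 for *Eme2*, a subunit of a structure-specific endonuclease with Mus81, with adjusted p of 0.35 to 0.37 (edgeR).

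On the lower side, *Eln*, which encodes elastin, was at 64.1 to 116 CPM (median 89.3) in dKO tumours and at 129 to 280 CPM (median 138) in WT tumours (log2 fold change -1.03 ± 0.17 SE, adjusted p = 0.10, edgeR). The groups did not overlap, although 1 WT tumour lay far above the others of its group. In CAFs *Eln* was at 179 to 399.7 CPM in dKO and 276 to 699.8 CPM in WT (log2 fold change -0.81, adjusted p = 0.078, edgeR), and in iDFs at 4.97 to 7.09 CPM in dKO and 29.6 to 34.9 CPM in WT. *Gsdmc4* and *Gsdmc3*, neighbouring gasdermin genes on chromosome 15, had log2 fold changes of -4.72 ± 0.66 and -3.66 ± 0.64 (SE; adjusted p = 0.060 and 0.13, edgeR), again without overlap. *Gsdmc2*, their neighbour, chosen after its values were seen, was at 3.88 to 35.2 CPM in dKO tumours and at 9.68 to 19.5 CPM in WT tumours, and the sum of the 4 *Gsdmc* genes was at 64.4 to 278 CPM in dKO tumours and 133 to 227 CPM in WT tumours, with overlap.

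Genes without overlap lay near each other in part. Of the 121, 51 fell into 18 runs with gaps of at most 1 Mb, 5 of them with 3 genes or more, and in 7 of the 18 runs all genes had the same direction. How many such runs the spacing of all tested genes would give was not examined. Genes of these runs were named after their values were seen. One run, on chromosome 3 (92685499 to 93015687), held *Lce1d*, *Lce1h* and *Crct1*, all lower, of which the *Lce* genes encode proteins of the cornified envelope of the epidermis. All 19 genes tested in that run were below 0, with a median log2 fold change of -1.04, and 2 of them had an unadjusted p under 0.05. Since the run was delimited by these values, its counts are a description.

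Lists of genes for the tumour cells, the stroma, the skin and the immune cells were described by their counts beside the same counts over all genes. No member of any of the 41 lists was called with edgeR, where 0.0442% of all genes were. Of the 16 melanocyte pigment genes 15 were above 0 (median log2 fold change 0.34, against 0.019 for all genes) and 1 had an unadjusted p under 0.05. This median was -0.06 without dKO 2, 0.10 without WT 3, 0.79 without WT 5 and 1.19 without WT 4. *Tyr*, the rate-limiting enzyme of melanin synthesis, was at 7.82 to 264 CPM (median 93.2) in dKO tumours and at 10.1 to 206 CPM (median 72.6) in WT tumours, and *Mitf*, the transcription factor of the lineage, at 30.6 to 70.0 CPM in dKO tumours and 30.6 to 60.3 CPM in WT tumours. The pigment list summed to 723 to 2734 CPM in dKO tumours and 838 to 3027 CPM in WT tumours, so that it varied more within each group than between them. *Sox10*, at 233 to 686 CPM in dKO tumours and 219.6 to 637 CPM in WT tumours, had a log2 fold change of -0.20 ± 0.26 (SE).

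Of the 18 genes of the invasive melanoma state 15 were above 0 (median 0.15). *Tnc*, the matrix glycoprotein tenascin C, was at 589.7 to 2075 CPM (median 766) in dKO tumours and at 457 to 631 CPM (median 518) in WT tumours (log2 fold change 0.92 ± 0.28 SE, adjusted p = 0.46, edgeR), with 1 dKO tumour far above the rest. The log2 fold change of *Tnc* was 0.18 without dKO 5. *Snai2*, a transcription factor of the neural crest, was at 15.6 to 22.3 CPM in dKO tumours and at 16.9 to 34.3 CPM in WT tumours (log2 fold change -0.36 ± 0.12 SE). The 18 genes of MAPK output had 15 above 0 (median 0.13) and none at an unadjusted p under 0.05, where 7.52% of all genes were. *Dusp4* and *Dusp5*, phosphatases that act on MAP kinases, had log2 fold changes of 0.22 ± 0.40 and 0.01 ± 0.26 (SE).

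Proliferation genes lay mostly below 0. Of the 20 S phase genes 18 were below 0 (median -0.19, against 46.8% of all genes), and 3 of them had an unadjusted p under 0.05. *Mcm5*, a subunit of the replicative helicase, was at 27.0 to 42.1 CPM (median 33.0) in dKO tumours and at 33.9 to 52.2 CPM (median 38.1) in WT tumours (log2 fold change -0.37 ± 0.15 SE, adjusted p = 0.64, edgeR). Of the 21 G2/M genes 17 were below 0 (median -0.13), none at an unadjusted p under 0.05. *Mki67*, the proliferation marker Ki-67, was at 58.4 to 208 CPM (median 127) in dKO tumours and at 53.6 to 221 CPM (median 130.2) in WT tumours, a log2 fold change of 0.01 ± 0.33 (SE). *Cdkn1a* and *Cdkn2a*, inhibitors of cyclin-dependent kinases, had log2 fold changes of -0.05 ± 0.21 and 0.04 ± 0.25 (SE). Differences of these sizes were within the spread between tumours.

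Metabolic and translation genes had small medians with single exceptions. All 20 oxidative phosphorylation genes were below 0 (median -0.18), but the only ones with an unadjusted p under 0.05 were *Cox8b* (log2 fold change -1.71 ± 0.36 SE) and *Cox6a2* (-1.64 ± 0.41 SE), subunits of cytochrome c oxidase of the muscle and heart type. *Cox8b* was at 0.458 to 2.70 CPM in dKO tumours and at 0.933 to 4.64 CPM in WT tumours. Of the 20 ribosomal protein genes 17 were below 0 (median -0.16), with *Rpl35a* as the outermost. Of the 19 hypoxia and glycolysis genes 12 were below 0 (median -0.05), with *Egln3*, a prolyl hydroxylase that is induced by hypoxia, at 50.5 to 151 CPM in dKO tumours and 94.3 to 187 CPM in WT tumours.

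The lists of fast skeletal muscle and of the hair follicle had the lowest medians. Every one of the 18 fast skeletal muscle genes was below 0, 15 of them at an unadjusted p under 0.05 where 3.97% of all genes were lower at that level, with a median log2 fold change of -1.36. *Atp2a1*, the calcium pump of fast muscle fibres, was at 86.3 to 351 CPM (median 182) in dKO tumours and at 138 to 1171 CPM (median 433) in WT tumours (log2 fold change -1.68 ± 0.45 SE, adjusted p = 0.39, edgeR). The list summed to 904 to 2719 CPM in dKO tumours and to 1500 to 8515 CPM in WT tumours, so that the groups overlapped and WT 3 alone was at the highest value. DESeq2 called 4 of the 18 lower, where it called 0.624% of all genes lower. In other lists DESeq2 called 2 neutrophil genes higher and 2 oxidative phosphorylation genes lower. It also called 1 checkpoint gene higher, and 1 gene lower in each of the cytotoxic effector, imprinted and ribosomal protein lists.

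All 20 hair follicle genes were below 0, with a median of -0.98 and 2 at an unadjusted p under 0.05. *Lhx2*, a transcription factor of hair follicle stem cells, was at 5.54 to 15.01 CPM (median 12.5) in dKO tumours and at 14.0 to 30.2 CPM (median 18.0) in WT tumours (log2 fold change -0.80 ± 0.25 SE, adjusted p = 0.49, edgeR). *Krt25*, a keratin of the inner root sheath, was at 5.85 to 113 CPM in dKO tumours and at 26.0 to 681 CPM in WT tumours, with a standard error of 1.47 on its log2 fold change of -0.99. The list summed to 731 to 2457 CPM in dKO tumours and 1624 to 6993 CPM in WT tumours. Its median was -0.07 without dKO 5, the single female of the dKO group, and -2.63 without WT 3, -2.17 without WT 4 and -2.66 without batch 2. Of the 16 keratinocyte genes of the interfollicular epidermis 15 were below 0 (median -0.36), none at an unadjusted p under 0.05, and of the 14 sebaceous gland genes 12 were (median -0.43). All 15 adipocyte genes were below 0 (median -0.49, or -0.20 without WT 3, -0.96 without WT 4 and -0.06 with no sex term), among them *Adipoq*, which encodes the hormone adiponectin, at 3.16 to 43.3 CPM in dKO tumours and 4.56 to 26.2 CPM in WT tumours. The medians of fast muscle, follicle, epidermis and fat genes thus all lay below 0, and their part in the other differences was not tested.

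**Figure D4:**
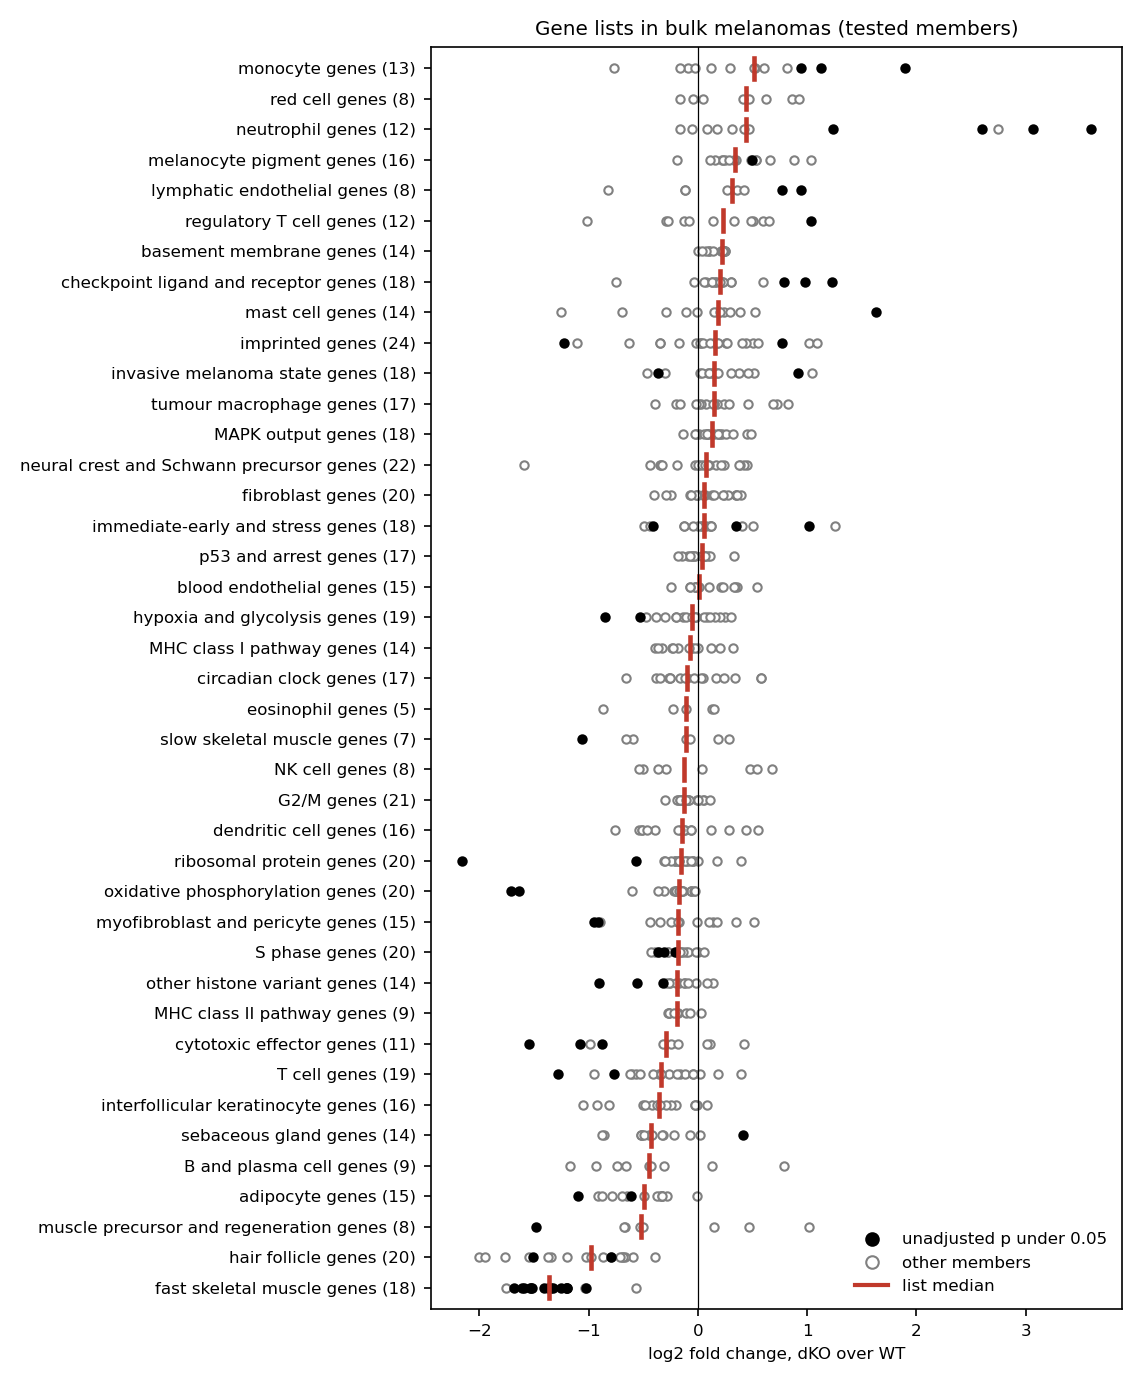
Log2 fold change of dKO over WT tumours (x axis) for the tested members of each list (rows), with each point a gene, filled at an unadjusted p under 0.05, and the vertical bar the list's median. Fast skeletal muscle (median -1.36) and hair follicle genes (median -0.98) lie lowest, and no member was called with edgeR.

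Among the stromal lists, fibroblast and blood endothelial genes had medians near 0. Of the 20 fibroblast genes 12 were above 0 (median 0.06), and *Pdgfra*, a receptor of fibroblasts, was at 65.7 to 228 CPM in dKO tumours and 81.1 to 128 CPM in WT tumours. Of the 14 basement membrane genes 13 were above 0 (median 0.22), with *Col4a1*, a chain of type IV collagen, at 1785 to 5540 CPM in dKO tumours and 1422 to 3320 CPM in WT tumours. Of the 15 blood endothelial genes 8 were above 0 (median 0.01), and *Pecam1*, the endothelial adhesion molecule CD31, had a log2 fold change of -0.03 ± 0.18 (SE). The 8 lymphatic endothelial genes had a median of 0.31, which was 0.002 without dKO 2, 0.04 without WT 3, 0.62 without dKO 5 and -0.05 with no sex term. *Reln* and *Pdpn* of these genes reached an unadjusted p under 0.05, with log2 fold changes of 0.77 ± 0.23 and 0.94 ± 0.38 (SE), while *Prox1*, the transcription factor that defines this lineage, was at 1.72 to 8.21 CPM in dKO tumours and 1.87 to 6.47 CPM in WT tumours. In the list of myofibroblasts and pericytes 10 of 15 genes were below 0 (median -0.18), with *Acta2*, smooth muscle actin, at 46.5 to 75.5 CPM in dKO tumours and 71.3 to 121 CPM in WT tumours.

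Immune lists ran in both directions. Of the 19 T cell genes 16 were below 0 (median -0.33), 2 of them at an unadjusted p under 0.05. *Cd8a*, the coreceptor of cytotoxic T cells, was at 0.803 to 1.86 CPM (median 1.02) in dKO tumours and at 0.698 to 3.48 CPM (median 2.81) in WT tumours (log2 fold change -1.28 ± 0.46 SE, adjusted p = 0.57, edgeR). *Zap70*, a kinase of T cell receptor signalling, was at 0.740 to 1.79 CPM in dKO tumours and at 1.27 to 2.28 CPM in WT tumours, whereas *Cd3e*, a chain of the T cell receptor complex, had a log2 fold change of 0.02 ± 0.40 (SE). In a bulk tumour fewer T cells and less RNA of these genes per T cell cannot be told apart. Sorted CD8+ T cells were selected by CD8, so *Cd8a* in them cannot decide this, and the cause was not tested. In them *Cd8a* was at 538 to 684 CPM in dKO and 479 to 838 CPM in WT (log2 fold change -0.05 ± 0.17 SE, adjusted p = 0.96, edgeR), and *Zap70* had a log2 fold change of 0.12 ± 0.15 (SE, adjusted p = 0.84, edgeR). The median of the T cell list was -0.02 without dKO 5 and -0.01 in male tumours alone. Of the 18 cytotoxic effector genes 11 passed the filter on low counts and 8 were below 0 (median -0.29).

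*Gzmc*, a granzyme of cytotoxic lymphocytes, was the only member of that list without overlap. It was at 1.16 to 2.99 CPM (median 2.15) in dKO tumours and at 3.28 to 8.67 CPM (median 4.79) in WT tumours (log2 fold change -1.54 ± 0.32 SE, adjusted p = 0.22, edgeR). It also differed in CAFs, where it was at 0 to 0.287 CPM in dKO and 1.102 to 5.06 CPM in WT (log2 fold change -4.42, adjusted p = 0.0085, edgeR). *Cd8a* was at or near 0 in all CAF libraries (at most 0.0367 CPM). Other lymphocyte genes were detected in them, with *Zap70* at 0.13 to 0.24 CPM in dKO and 0.18 to 0.39 CPM in WT. *Ctsw* was at 0.14 to 0.37 CPM in dKO CAFs and 0.096 to 0.29 CPM in WT CAFs. Whether lymphocyte RNA was carried over into the CAF libraries was not tested. In CD8+ T cells *Gzmc* was at 7.29 to 54.9 CPM (median 28.4) in dKO and 13.98 to 20.5 CPM (median 17.6) in WT (log2 fold change 0.77 ± 0.52 SE, adjusted p = 0.67, edgeR), with overlap. *Gzma* and *Gzmb*, the better known granzymes, had log2 fold changes of -0.29 ± 0.43 and -0.25 ± 0.30 (SE) in tumours.

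The monocyte and neutrophil lists had medians above 0, and those of eosinophils (-0.11) and dendritic cells (-0.15) lay below it. Of the 13 monocyte genes 9 were above 0 and 3 had an unadjusted p under 0.05 (median 0.51), with *Ms4a4c*, of the MS4A family of membrane proteins, at 2.16 to 5.28 CPM (median 3.34) in dKO tumours and at 0.872 to 2.99 CPM (median 1.70) in WT tumours (log2 fold change 0.94 ± 0.31 SE, adjusted p = 0.51, edgeR). The list summed to 2474 to 5527 CPM in dKO tumours and to 1667 to 3362 CPM in WT tumours, and its median was 0.14 without dKO 6. Of the 17 neutrophil genes 12 passed the filter on low counts, and 10 of these were above 0 (median 0.44). *Mmp8*, the neutrophil collagenase, did not overlap, at 0.561 to 3.88 CPM in dKO tumours and at 0 to 0.442 CPM in WT tumours (log2 fold change 3.07 ± 0.71 SE, adjusted p = 0.33, edgeR). *S100a8*, the most used marker of the lineage, had a log2 fold change of -0.16 ± 0.81 (SE), and the neutrophil list ran from 62.3 to 872 CPM in dKO tumours and from 168 to 913 CPM in WT tumours. Its median changed sign to -0.45 in male tumours alone and to -0.26 without dKO 5.

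Antigen presentation and checkpoint genes had medians near 0. Of the 9 genes of the MHC class II pathway 8 were below 0 (median -0.19), and of the 14 of the class I pathway 10 were (median -0.07), none at an unadjusted p under 0.05. *H2-Ab1*, a chain of the class II molecule, was at 112 to 359 CPM in dKO tumours and at 159.8 to 322 CPM in WT tumours. Of the 18 checkpoint ligand and receptor genes 16 were above 0 (median 0.20) and 3 had an unadjusted p under 0.05, among them *Pvr* and *Btla*. *Btla*, an inhibitory receptor of lymphocytes, was at 4.18 to 16.7 CPM (median 7.53) in dKO tumours and at 2.59 to 4.48 CPM (median 3.04) in WT tumours (log2 fold change 1.23 ± 0.43 SE, adjusted p = 0.56, edgeR). The log2 fold change of *Btla* was 0.64 without WT 4 and 1.74 without dKO 5. *Cd274*, which encodes PD-L1, was at 7.86 to 18.9 CPM in dKO tumours and 6.83 to 18.2 CPM in WT tumours, a log2 fold change of 0.13 ± 0.30 (SE).

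**Figure D5:**
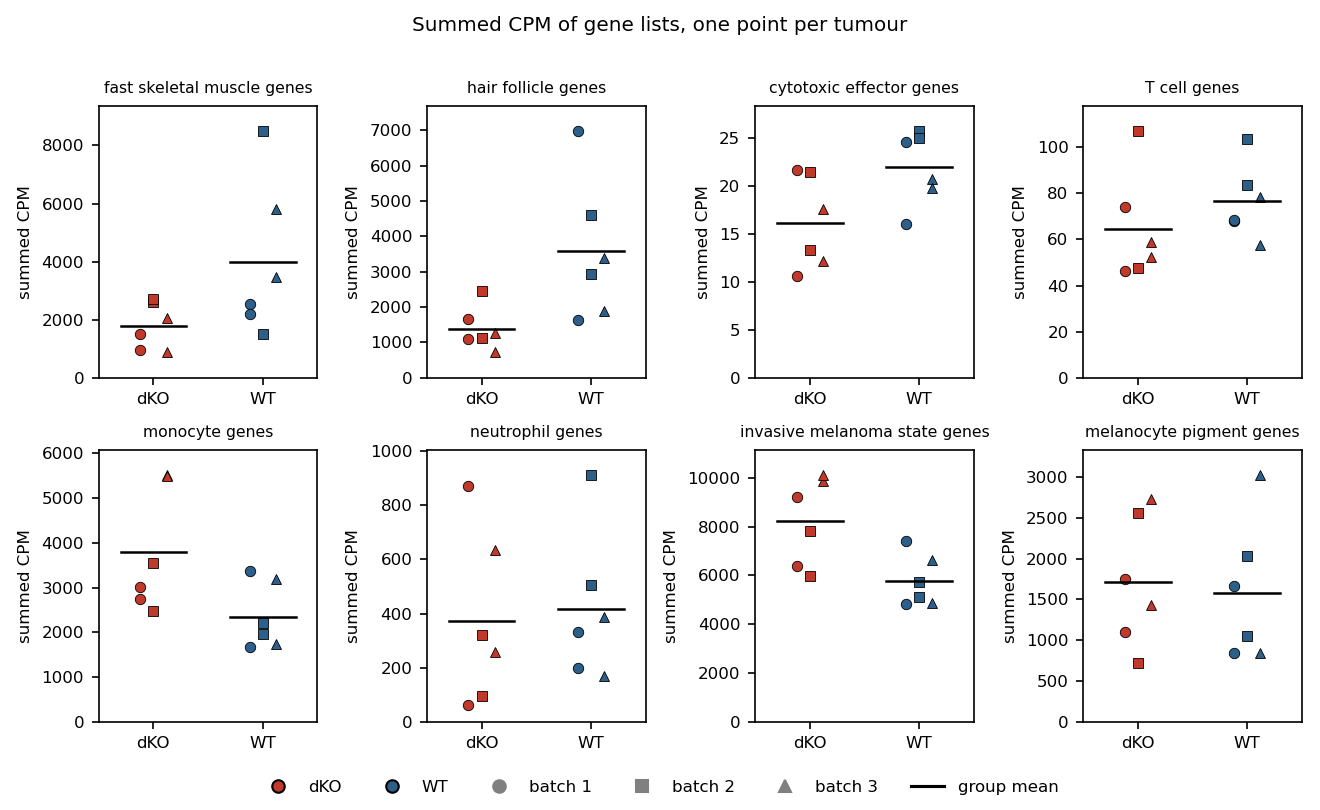
Summed level of 8 lists in each tumour (CPM, y axis from 0), dKO tumours left of WT tumours in each panel, with each point a tumour, its shape the batch and the line the group mean. The groups overlap in every list, also for fast skeletal muscle, at 904 to 2719 CPM in dKO tumours and 1500 to 8515 CPM in WT tumours.

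The other histone variants were examined because the mice lack macroH2A. Of 14 such genes 12 were below 0 (median -0.19) and 3 had an unadjusted p under 0.05. *H2afx*, the variant H2A.X of the DNA damage response, was at 15.5 to 40.4 CPM (median 28.7) in dKO tumours and at 24.8 to 49.3 CPM (median 37.7) in WT tumours (log2 fold change -0.55 ± 0.20 SE, adjusted p = 0.58, edgeR). *H2afv* and *H2afz*, the 2 genes of H2A.Z, had log2 fold changes of -0.32 ± 0.12 and -0.18 ± 0.12 (SE; adjusted p = 0.57 and 0.76, edgeR). The list summed to 1506 to 1747 CPM in dKO tumours and 1611 to 1826 CPM in WT tumours, with overlap, so no rise of the remaining variants was measured. Poly-A selection leaves most replication-dependent histone mRNA out of these libraries, and only the variants can be read in this way.

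Imprinted genes, expressed from 1 parental allele, had 17 of 24 above 0 (median 0.15). *Nnat* was at 4.90 to 10.6 CPM (median 6.56) in dKO tumours and at 4.01 to 30.3 CPM (median 7.48) in WT tumours (log2 fold change -1.23 ± 0.31 SE, adjusted p = 0.37, edgeR). *Peg10* was at 11.7 to 36.4 CPM (median 25.2) in dKO tumours and at 12.1 to 19.4 CPM (median 14.6) in WT tumours (log2 fold change 0.77 ± 0.27 SE, adjusted p = 0.55, edgeR). *H19* and *Igf2*, the best known pair, had log2 fold changes of -0.34 ± 0.57 and 0.15 ± 0.38 (SE), and all of these groups overlapped.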

How the data were processed

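RNA of 12 melanomas was sequenced as directional poly-A libraries of single 75-base reads. The deposited files hold, per transcript, estimated counts without normalization that the authors obtained with Salmon 1.2.1 (version from the submitters' processing notes) on Gencode transcripts of GRCm38.p6. The same deposited files hold TPM, scaled by transcript length and library total, used here for marker levels only. Counts of transcripts were added up by gene, using release 21 of the Gencode mouse annotation, which held 139791 of 140992 transcripts (99.15%), and rounded. The unmatched transcripts, 0.411% to 0.521% of each tumour's counts, were left out. The counts per tumour are given in the text and set the precision of low genes.

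The test was that of edgeR 4.0.16 in R 4.3.3 (low counts filtered by filterByExpr, minimum count 10 and total 15, TMM factors, robust quasi-likelihood test, two-sided, Benjamini-Hochberg over all genes tested) with batch, sex and genotype as terms. CAFs and CD8+ T cells were fitted with sex and genotype. CPM are counts scaled to the total of the library over the genes kept by the filter, multiplied by its TMM factor. Named genes are the targeted pair, every called gene, the 10 higher and 10 lower protein-coding genes with the smallest p among those without overlap and with an average log2 CPM of at least 1, from each list the first 2 genes and the 2 of smallest p, and same-locus copies. Others are marked, and the results of some genes within the rule are not reported here. The tumours, genes and lists were chosen with earlier results of these data known. Alternatives were DESeq2 1.42.0, limma-voom (limma 3.58.1), RLE factors, no low-count filter, a length offset, protein-coding genes alone, no sex or no batch term, male tumours alone, and each tumour left out. Leaving out batch 2 was chosen after seeing the data. On counts simulated for the tumour design over 18097 genes, edgeR recovered 42% of genes changed by a log2 fold of 1 and 74% of those changed by 2 with 5 false calls, and DESeq2 61% and 82% with 47.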

Additional observations from a re-analysis of the deposited data

Results flagged for a closer look

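Over 204 groups of 6 tumours (a gene or list in 1 genotype), 23 highest or lowest values stood far from the rest by Dixon's criterion, where chance gives about 1 in 20 groups. Among summed lists in dKO tumours, the highest fibroblast sum (64840 CPM), the highest B and plasma cell sum (283 CPM), the highest sum of other histone variants (1747 CPM) and the lowest sebaceous gland sum (345 CPM) stood apart. Among summed lists in WT tumours these were the lowest neural crest and Schwann precursor sum (4583 CPM) and the highest adipocyte (1921 CPM), sebaceous gland (1731 CPM), red cell (1352 CPM) and tumour macrophage (4312 CPM) sums.

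Among single genes, 1 dKO tumour stood above its group for *Gm14296* (0.203 CPM), *Gm14305* (0.0803 CPM), *Gm4724* (1.94 CPM), *Rpl35a* (116 CPM), *Pvr* (101.6 CPM), *Cox8b* (2.70 CPM), *Mmp8* (3.88 CPM), *Btla* (16.7 CPM) and *Tnc* (2075 CPM). In the WT group 1 tumour stood above the others for *Rpl35a-ps2* (14.7 CPM), *Eln* (279.5 CPM), *Cox6a2* (27.9 CPM), *Lipe* (59.4 CPM) and *Car3* (688 CPM).

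*Tagap1* was higher in every dKO tumour than in any WT tumour (log2 fold change 1.51), while in CD8+ T cells every dKO library was lower than any WT library (log2 fold change -4.05). *Tagap*, which shares sequence with *Tagap1*, was higher in every dKO library than in any WT library of CD8+ T cells. The difference between these experiments and the division of reads between the related genes were not tested.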

How the results depend on the processing

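No paired analysis was possible because the labels give the mice no shared replicate number, and batch was a term of the model instead. DESeq2 called 78 genes higher and 113 lower in dKO tumours, limma-voom 10 lower, the fit without a low-count filter 5 higher, and the fit without the sex term 5 higher and 16 lower. In male tumours alone, 5 dKO and 2 WT, 0 and 0 genes were called with edgeR (1118 higher and 925 lower at an unadjusted p under 0.05), and without batch 2, chosen after seeing the data, 0 and 0 (464 and 525). With 1 tumour left out, 0 to 4 genes were higher (0 without WT 4, 1 without WT 3 and 1 without dKO 5) and 4 to 10 lower (10 without WT 2). The other alternatives left both counts within 1.5 times. DESeq2 also called the 8 genes, and the cause of its larger counts was not tested.

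Of 1341 values of 61 genes under these settings, 1253 kept direction and side of the threshold, 42 lost and 40 gained the call, and 6 changed sign. All 6 were of *Gsdmc2* (log2 fold change 0.09), at -0.006 with the length offset, -0.62 without batch 2 and -0.30 to 0.48 with 1 tumour left out. With 1 library left out, *Adamts5* in CAFs ran from -0.20 to 0.11 and *Rpl35a* in CD8+ T cells from -0.27 to 0.02. The list medians kept their sign in all 22 alternatives for 19 of 41 lists, among them fast muscle (-1.82 to -0.97), monocyte (0.14 to 0.53) and S phase genes (-0.42 to -0.14). Others that kept it came close to 0, at -2.66 to -0.07 for hair follicle, -0.96 to -0.06 for adipocyte and -0.53 to -0.01 for T cell genes. They changed sign at least once in the other 22, as for pigment genes (-0.06 without dKO 2, 1.19 without WT 4), MAPK output (-0.25 in males), basement membrane (-0.12 without dKO 5), tumour macrophage (-0.07 without dKO 5) and keratinocyte genes (0.07 in males). With 1 female among 6 dKO mice, the sex term without dKO 5 rests on WT tumours alone. Poly-A bulk RNA does not separate cell number from RNA per cell. Reads shared by near-identical genes limit the values of the chromosome 2 genes, *Rpl35a-ps2*, *Tagap1*, *Dynlt1b* and *Plac9b*.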

Other observations

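The genes with the widest range over the 12 tumours included many pseudogenes. In 154 genes, among them *Gm14305* and *Rpl35a-ps2*, whose levels did not overlap between genotypes, the highest tumour exceeded the lowest by over 100 times (on CPM plus 0.1), and 47 of them were pseudogenes (30.5%), where 674 of all genes tested were (3.72%), while 104 were protein-coding and 4 lay on the Y chromosome. *Gm28439*, chosen like the next gene after its values were seen, was at 0 in all 4 tumours of batch 3, and at 287 to 1223 CPM in the other 8, of both genotypes. *Gm6166* was at 149 to 385 CPM in WT 1 to WT 4 and at most 1.46 CPM in the other 8 tumours. The expression of *Xist* and *Ddx3y* matched the labelled sex of all 12 mice.

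Cells of the blood and rarer immune types gave further values. Of 8 red cell genes that passed the filter 6 were above 0 (median log2 fold change 0.44), with *Hba-a1*, an alpha globin, at 6.78 to 150 CPM in dKO tumours and 25.1 to 342 CPM in WT tumours. *Hdc*, the enzyme that makes histamine, was at 2.46 to 36.9 CPM in dKO tumours and 3.97 to 7.32 CPM in WT tumours, and *Tpsab1*, a tryptase of mast cells, at 3.49 to 31.6 CPM in dKO tumours and 18.1 to 71.1 CPM in WT tumours. *Igkc*, the kappa light chain of antibodies, was at 14.4 to 187 CPM in dKO tumours and 38.1 to 144 CPM in WT tumours. *Fos*, an immediate-early gene that also responds to handling of tissue, was at 62.5 to 159.7 CPM (median 112) in dKO tumours and 24.2 to 72.4 CPM (median 49.4) in WT tumours (log2 fold change 1.02, adjusted p = 0.49, edgeR).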
